A study of Homo sapiens with 12 samples.

Results

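The genes described here encode chaperones and their partners, of the cytosol and nucleus but in part also of mitochondria and the endoplasmic reticulum. They cover the CCT ring, prefoldin, the HSP70 and HSP110 chaperones, their DNAJ and BAG partners, 1 small heat shock protein and the heat shock factor HSF1. They were chosen by symbol, as every gene whose name starts with DNAJ, with 1 exception, plus a written list of CCT, PFDN, HSPA, HSPB, HSPH, HSF and BAG symbols. A gene had to have a probe set that the array annotation ties to that symbol alone, and the probe set with the highest mean stood for the gene. This gave 71 of the 19775 genes with such a probe set, among them 4 noncoding RNAs that carry a DNAJ name. TCP1, HSPA1A, HSPA1B, HSPA8, HSPB11, HSF2 and PFDN6 had no probe set tied to the symbol alone and were not analysed here. PFDN3 was not found under that symbol. The annotation lists this prefoldin subunit as VBP1, which was read with a related list below.

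The cells were CCRF-CEM-C7H2, a clone of the CCRF-CEM line from T-cell acute lymphoblastic leukemia (T-ALL) that is sensitive to glucocorticoids. Cultures received 100 nM dexamethasone, a synthetic glucocorticoid, for 6 h or for 24 h, and the control cultures received 0.1% ethanol as the empty carrier for the same times. Each of the 4 groups had 3 arrays from separate experiments, with numbers 0, 1 and 3 for the early time and 1, 2 and 3 for the late one, and per-array values are given in that order. RNA was measured on Affymetrix HG-U133 Plus 2.0 arrays, and values are log2 expression. Because all groups are 1 clone, the arrays say nothing of other T-ALL cells, and in such bulk RNA fewer cells of a type and less RNA per cell cannot be told apart.

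Most newly made proteins that need help to fold meet several of these chaperones in turn. HSP70 binds exposed stretches of a chain in a cycle driven by ATP, DNAJ proteins bring clients to HSP70 and trigger its ATP hydrolysis, and HSP110 and BAG proteins release ADP so that the client is let go. Prefoldin hands actin and tubulin chains to CCT, a double ring of different subunits that encloses them while they fold. HSF1 switches on many of these genes after heat or other protein damage by binding heat shock elements, which are inverted repeats of the unit GAA. Glucocorticoids act through a receptor that HSP70, HSP40 and HSP90 chaperones hold in a form able to bind hormone.

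Of the 71 genes, 59 passed the filter on low values, which asked for 3 or more of the 12 arrays at a log2 value of 4 or above, and were tested. The other 12 stayed below 4 on every array, with values between 1.76 and 3.55: DNAJA4, DNAJB7, DNAJB8, DNAJB13, DNAJC5B, DNAJC5G, DNAJC28, HSPA6 and the noncoding DNAJB8-AS1, DNAJC9-AS1, DNAJC27-AS1 and DNAJC3-DT. HSPA6, a strictly heat-inducible HSP70, thus did not leave background in any group. The arrays carried T-lineage transcripts, with CD3D between 13.87 and 14.36 on all 12 arrays, although CD2 and CD28 stayed below 4. All 5 measured myeloid markers and HBB were below 4 on every array. Of other lineages, the B-cell gene CD79A was measured between 9.78 and 11.80 and was higher with dexamethasone at 24 h by 1.55 ± 0.18 (log2, SE; limma adjusted p = 5.07e-05), while CD79B, between 6.63 and 7.38, did not pass (0.25, adjusted p = 0.256) and MS4A1 and PAX5 were below 4 throughout. COL1A1, a stromal gene, lay between 5.62 and 6.55. Their part in the chaperone results was not tested.

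At 24 h the chaperone genes moved mostly down with dexamethasone, and the subunits of the CCT ring fell together. limma called 25 of the 59 tested genes lower and 11 higher at an adjusted p under 0.05, while 23 did not pass. Over all 9947 genes tested 28.1% were called lower and 23.9% higher, 52% in all, so the chaperone genes had a larger share of lower calls (42.4%) and a smaller share of higher calls (18.6%). Their median log2 difference was -0.18, against -0.02 over all genes tested. In all 25 lower genes and all 11 higher genes the dexamethasone and ethanol arrays of 24 h did not overlap, and the direction was the same in all 3 experiments. These genes were picked by the test on the same arrays, and the counts were not made over all genes called, so this is no further support. DNAJB5 and DNAJC18 passed the filter through the 24 h dexamethasone arrays alone and so had to be higher there, and without them 9 of 57 genes were called higher. At least 2-fold differences were seen in 5 lower genes (HSPA4L, CCT5, DNAJC2, BAG2 and PFDN2) and 5 higher ones (DNAJB2, DNAJC18, DNAJC15, DNAJC4 and BAG3).

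Fewer of the chaperone genes were called at 6 h than at 24 h, in a comparison that called 6.49% of all genes tested. BAG6 was the 1 gene called higher (1.69% of 59, against 2.72% of all genes tested), and BAG2, DNAJC2, DNAJC6, HSPA4L, PFDN2 and PFDN4 were called lower (10.2%, against 3.77%). All 6 lower genes were also lower at 24 h. The difference at 6 h was negative in 25 of the 25 genes that were lower at 24 h and positive in 10 of the 11 that were higher, where 79.9% and 78.5% of all genes called at 24 h had the matching sign. With experiment number as a block, 5 genes were higher and 11 lower at 6 h (6.08% and 7.53% of all genes tested). In the fit limited to the 6 arrays of 6 h, 0 were called higher by limma and 2 lower, HSPA4L and PFDN2, with 4 higher and 11 lower at an unadjusted p under 0.05. The shares of all genes tested were not counted for that fit, so these counts have nothing to be read against.

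Control transcripts limit how absolute changes can be read. The poly-A spikes, added to each RNA in a fixed amount, were higher on dexamethasone than on ethanol arrays by 0.47 at 6 h (7.33 against 6.86) and by 0.34 at 24 h (7.35 against 7.01), and hybridization controls, added later, by 0.34 and 0.38. The spikes lay between 6.73 and 7.18 on the 24 h ethanol arrays and between 7.32 and 7.40 on the 24 h dexamethasone arrays. The size of the 24 h shift is thus not closely fixed. On a scale set by the poly-A spikes, the median of all genes tested moved to -0.47 at 6 h and -0.36 at 24 h, and 20 of the 22 positive chaperone differences at 6 h turned negative, as did 8 at 24 h, 0 of them among the called genes. On that scale 6 chaperone genes were higher and 37 lower at 24 h (9.65% and 47% of all genes tested), and 0 were higher and 47 lower at 6 h (1.14% and 68%), with 0 higher at an unadjusted p under 0.05. The array file labels of the 6 h dexamethasone arrays carry 1 date and those of the 6 h ethanol arrays another, so at 6 h that date and the treatment cannot be told apart. All 6 arrays of 24 h share 1 date.

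**Figure D1:**
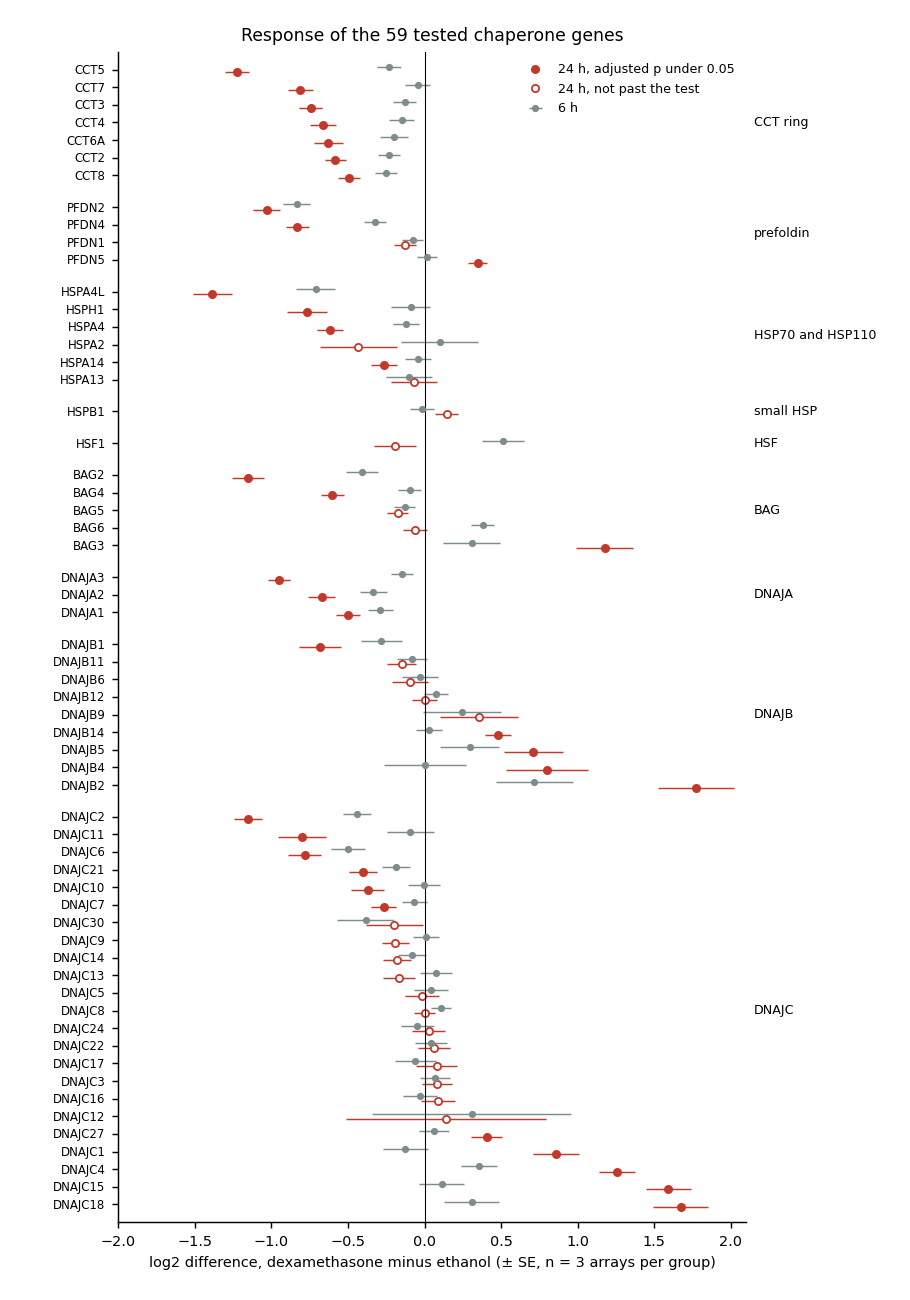
Log2 difference between dexamethasone and ethanol arrays (± SE, n = 3 arrays per group) for the 59 tested genes, grouped by class, at 24 h (red, filled where the adjusted p was under 0.05) and at 6 h (grey). All 7 CCT subunits lie left of 0 at both times, and DNAJB2, DNAJC18, DNAJC15, DNAJC4 and BAG3 lie beyond 1 at 24 h, of which DNAJB2 and DNAJC18 were below 4 with ethanol, so that their points are no measure of size; on the poly-A spike scale all points at 24 h lie 0.34 and all points at 6 h 0.47 further left.

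The CCT ring, also called TRiC, folds actin, tubulin and proteins with propeller-shaped repeats. All 7 subunits tested fell at 24 h, by 0.49 to 1.22 on the log2 scale, with a class median of -0.66. The largest fall was in CCT5, with log2 values of 11.83, 12.08 and 11.88 on the dexamethasone arrays of 24 h, against 13.11, 13.20 and 13.14 on the ethanol arrays. Its dexamethasone arrays were more than 1 log2 unit below every ethanol array, and the level was 0.428 times that with ethanol (log2 difference -1.22 ± 0.08 SE, adjusted p = 6.82e-07). CCT7 read 11.79, 12.07 and 11.82 with dexamethasone and 12.67, 12.69 and 12.75 with ethanol, a difference of -0.81 ± 0.08 (adjusted p = 1.41e-05). The groups again did not overlap, and experiment 2 gave the highest dexamethasone value of the 3 for both subunits.

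By the chosen probe sets, CCT8 had the smallest fall of the ring. Its values were 13.66, 13.65 and 13.58 on the dexamethasone arrays, against 14.14, 14.16 and 14.07 on the ethanol arrays (-0.49 ± 0.07, adjusted p = 0.000244). Between these lay CCT3 (-0.74 ± 0.08, adjusted p = 1.68e-05), CCT4 (-0.66 ± 0.08, adjusted p = 7.47e-05), CCT6A (-0.63 ± 0.09, adjusted p = 0.000235) and CCT2 (-0.58 ± 0.07, adjusted p = 5.42e-05). A further tested CCT8 probe set had a larger difference at 24 h (-1.30, adjusted p = 0.0243), as did a further one of CCT5 (-1.53, adjusted p = 0.00195). The place of CCT8 thus depends on the probe set. The subunits of 1 ring are built in equal number into the complex, and here the chosen probe sets were between 0.428 and 0.710 times the ethanol level. SDs among the 3 arrays of a group were between 0.01 and 0.15 for all 7, so each fall exceeded the spread between replicates.

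At 6 h the same 7 subunits had differences between -0.25 and -0.05, lower with dexamethasone in all 3 experiments for each. limma called 0 of them at 6 h (adjusted p between 0.0699 and 0.814), with 3 at an unadjusted p under 0.05 and 1, CCT8, called with experiment number as a block (adjusted p = 0.0303). The groups did not overlap for 5 of the 7. Direction in all 3 experiments, overlap and unadjusted p-values at 6 h were not counted over all genes tested. At 6 h, and so in the change between times, array date and treatment cannot be told apart. For 6 subunits the difference at 24 h was itself lower than that at 6 h. CCT5 led with a change between the times of -0.99 (adjusted p = 0.000189), while CCT8 did not pass (-0.24, adjusted p = 0.122). On the poly-A spike scale the change between times passed for CCT5 (adjusted p = 0.0134) and CCT7 (adjusted p = 0.0434) among the 7.

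Prefoldin did not move as 1 unit. VBP1, the subunit also named PFDN3, is outside the genes chosen by symbol and was lower at 24 h (-0.26, adjusted p = 0.00492). PFDN2, a beta-type subunit, was the member of the whole collection with the largest fall at 6 h. It read 10.06, 9.95 and 9.78 on dexamethasone arrays at 6 h, against 10.85, 10.78 and 10.65 on ethanol arrays, a difference of -0.84 ± 0.09 (adjusted p = 0.00023). At 24 h the values were 9.59, 9.51 and 9.50 with dexamethasone and 10.51, 10.60 and 10.58 with ethanol (-1.03 ± 0.09, adjusted p = 3.86e-06). Neither time had an overlap between groups, and the change between times did not pass (-0.20 ± 0.12, adjusted p = 0.284).

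PFDN4, another beta-type subunit, was lower at both times. Its arrays gave 12.16, 12.11 and 12.04 with dexamethasone at 6 h, against 12.54, 12.39 and 12.35 with ethanol (-0.32 ± 0.07, adjusted p = 0.0294). By 24 h they gave 11.69, 11.60 and 11.59 with dexamethasone and 12.44, 12.42 and 12.51 with ethanol (-0.83 ± 0.07, adjusted p = 6.41e-06), and the change between times passed (-0.51, adjusted p = 0.00592). The 6 h call ended without any 1 of 4 arrays, at most at an adjusted p of 0.0959, while a further PFDN4 probe set also fell at 6 h (-0.71, adjusted p = 0.00948). That probe set had nearly the same difference at 24 h (-0.72, adjusted p = 0.0009), so the further fall was seen in the chosen probe set alone. On the poly-A spike scale the change between times passed for 0 of the 4 prefoldin genes.

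PFDN5, an alpha-type subunit also known to bind MYC, went the other way. At 24 h it read 12.57, 12.53 and 12.51 on dexamethasone arrays and 12.17, 12.17 and 12.23 on ethanol arrays (0.35 ± 0.06, adjusted p = 0.00121), with no overlap. On the poly-A spike scale the difference was 0.01 (adjusted p = 0.965), so the direction of PFDN5 held relative to other genes and not on that scale. PFDN1 did not pass (-0.13 ± 0.07, adjusted p = 0.152). The probe sets of PFDN5, HSPA4 and DNAJC8 carry the suffix _x_at, given by the manufacturer to probe sets that may also bind other sequences. Signal of related sequences cannot be told apart there. Probe sets with the suffix _s_at, such as those of CCT2 and BAG3, were not counted here.

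**Figure D2:**
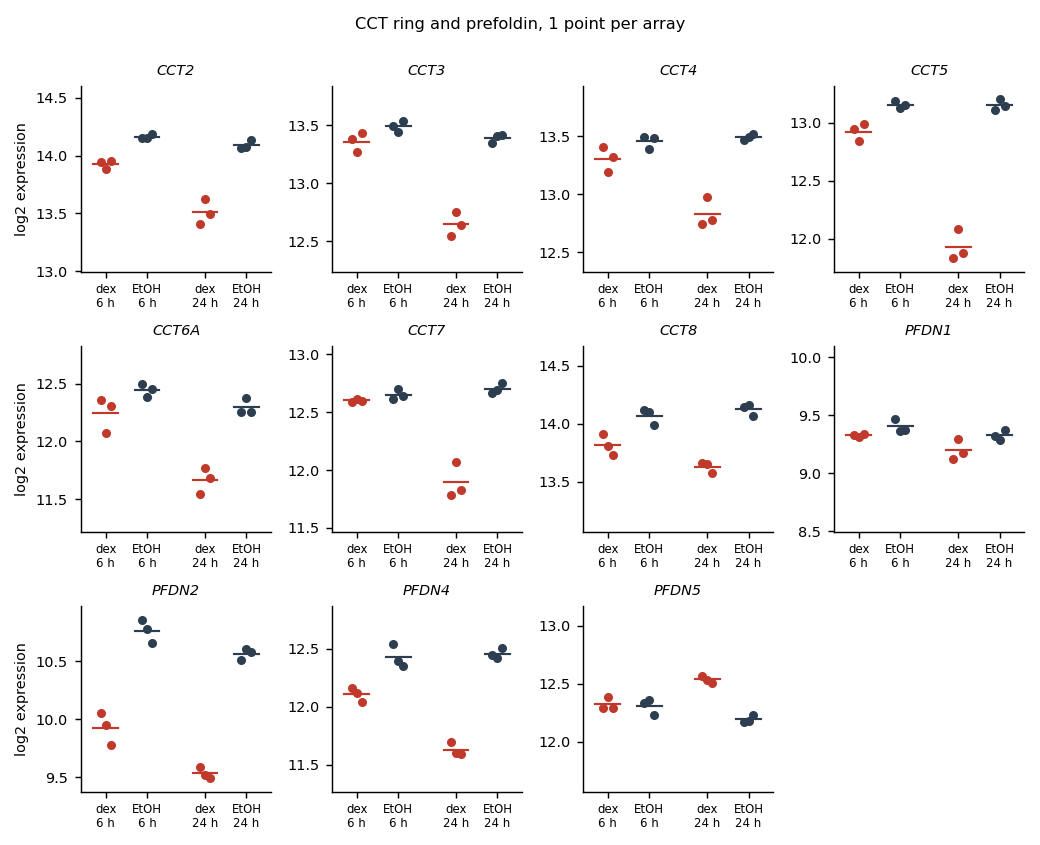
Log2 expression of 7 CCT and 4 prefoldin genes on each array, with dexamethasone (dex, red) left of ethanol (EtOH, blue) at 6 h and 24 h; points are arrays, lines are group means (n = 3), and each panel has its own axis range. In every CCT panel the 3 dexamethasone arrays of 24 h lie below the 3 ethanol arrays, PFDN2 is already lower at 6 h, and PFDN5 is higher at 24 h by 0.35, or 0.01 on the poly-A spike scale.

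Proteins that use or assist CCT and prefoldin were compared from a written list. The first list held prefoldin-like proteins, helpers of CCT and the prefoldin subunit VBP1. Of its 12 tested genes, 3 were higher and 4, VBP1 among them, lower at 24 h (1 and 8 on the poly-A spike scale), with a median of -0.13. These shares and those of the lists that follow are to be read against 23.9% higher and 28.1% lower over all genes tested, or 9.65% and 47% on the poly-A spike scale. PDCD5, which binds CCT, fell by 1.18 (adjusted p = 1.2e-06) and URI1, a prefoldin-like scaffold, fell by 0.81 (adjusted p = 3.67e-05), while the tubulin cofactor TBCD rose by 1.29 (adjusted p = 0.000181). Of 10 tested actin and tubulin genes, the main clients of the ring, 2 were higher and 2 lower, neither share above that of all genes. On the poly-A spike scale 1 was higher and 4 were lower. ACTB, TUBB and TUBA1B had differences of 0.04, -0.06 and 0.00 and did not pass, and TUBA4A rose by 2.60 (adjusted p = 3e-05).

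The HSP110 proteins, large relatives of HSP70 that let it exchange ADP for ATP, all fell at 24 h. HSPA4L, first described in testis, changed most. It read 7.86, 8.43 and 8.09 on the dexamethasone arrays of 24 h, against 9.49, 9.58 and 9.47 on the ethanol arrays, a level 0.382 times that with ethanol (-1.39 ± 0.13, adjusted p = 7.8e-06). Every dexamethasone array was more than 1 log2 unit below every ethanol array. Its fall was already present at 6 h, where the arrays gave 8.68, 8.65 and 8.61 with dexamethasone and 9.34, 9.23 and 9.50 with ethanol (-0.71 ± 0.13, adjusted p = 0.00823). A further HSPA4L probe set also fell at 6 h (-0.52, adjusted p = 0.0311), and the call held without any 1 of the 12 arrays.

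HSPH1, the stress-inducible HSP110, gave 10.90, 11.15 and 10.76 on the dexamethasone arrays of 24 h, against 11.72, 11.81 and 11.59 on the ethanol arrays (-0.77 ± 0.13, adjusted p = 0.000586). HSPA4, the constitutive one, gave 12.40, 12.41 and 12.38 with dexamethasone, against 12.97, 13.04 and 13.05 with ethanol (-0.62 ± 0.09, adjusted p = 0.000145). Neither gene had passed at 6 h, with differences of -0.09 for HSPH1 and -0.12 for HSPA4, and for both the difference at 24 h was lower than that at 6 h (adjusted p = 0.022 for HSPH1 and 0.0132 for HSPA4). Among the HSP70 proteins, HSPA14, which works on the ribosome with DNAJC2, fell by 0.27 ± 0.08 (adjusted p = 0.0227). HSPA13, a microsomal HSP70, and HSPA2, best known from testis, did not pass (-0.07 and -0.43, adjusted p = 0.732 and 0.184). HSPB1, the one small heat shock protein tested, had a difference of 0.14 ± 0.08 (adjusted p = 0.154).

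The DNAJA genes encode the closest relatives of bacterial DnaJ, and all 3 that were tested fell at 24 h. DNAJA3, which acts in mitochondria, had values of 9.47, 9.69 and 9.55 with dexamethasone, against 10.49, 10.58 and 10.50 with ethanol. The groups did not overlap, the level was 0.517 times that with ethanol (-0.95 ± 0.07, adjusted p = 1.93e-06), and the change from 6 h was -0.81 (adjusted p = 0.00035). DNAJA2, a cytosolic partner of HSP70, fell by 0.67 ± 0.09 (adjusted p = 0.000107), and DNAJA1, its farnesylated relative, fell by 0.50 ± 0.08 (adjusted p = 0.000411). With experiment number as a block both also passed at 6 h (adjusted p = 0.0248 for DNAJA2 and 0.0238 for DNAJA1, against 0.0511 and 0.0589 without the block).

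The 9 tested DNAJB genes split. DNAJB1, the classical heat-inducible HSP40, was the single one that fell (11.1%, against 28.1% of all genes tested). It read 9.48, 9.74 and 9.41 on the dexamethasone arrays of 24 h, against 10.27, 10.32 and 10.08 on the ethanol arrays (-0.68 ± 0.14, adjusted p = 0.00186). Every ethanol array stood above the highest dexamethasone array. At 6 h the arrays gave 10.07, 10.37 and 10.36 with dexamethasone and 10.31, 10.60 and 10.74 with ethanol, which overlapped and passed with experiment number as a block (adjusted p = 0.043) but not without it (-0.28 ± 0.14, adjusted p = 0.281).

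**Figure D3:**
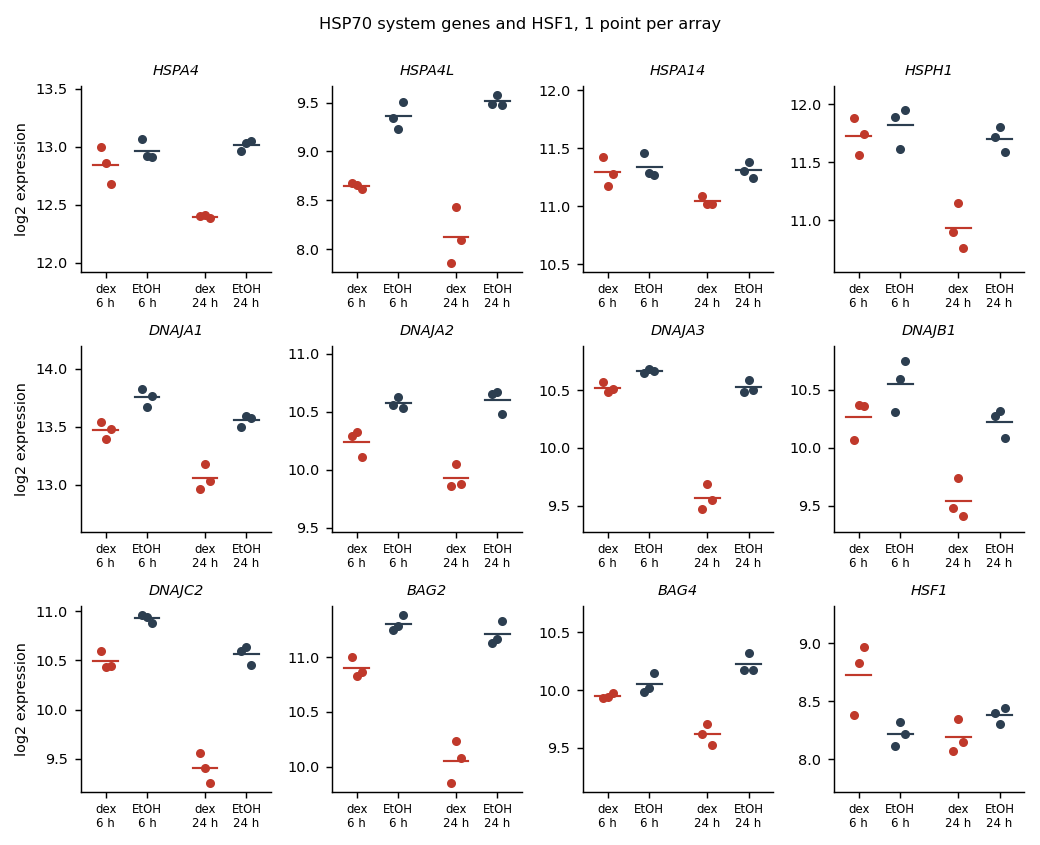
Log2 expression of HSP70-system genes and HSF1 on each array, with dexamethasone (dex, red) left of ethanol (EtOH, blue) at 6 h and 24 h; points are arrays, lines are group means (n = 3), and each panel has its own axis range. For all panels except HSF1 the 3 dexamethasone arrays of 24 h lie below the 3 ethanol arrays, and HSPA4L, DNAJC2 and BAG2 were called lower at 6 h as well.

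Another 4 DNAJB genes rose at 24 h (44.4% of the 9, against 23.9% of all genes tested), and DNAJB2 and DNAJB5 sat close to background. On the poly-A spike scale 1 DNAJB gene was higher and 3 were lower, against 9.65% and 47% of all genes tested. DNAJB2, a ubiquitin-binding co-chaperone best known from neurons, read 4.89, 5.16 and 5.66 with dexamethasone. With ethanol it read 3.59, 3.04 and 3.77, all below 4, so the rise was at least 1.24 measured against 4 (adjusted p = 0.000174). DNAJB5 read 4.27, 4.38 and 4.83 with dexamethasone and 3.80, 3.71 and 3.84 with ethanol, also below 4, a rise of at least 0.49. It passed the filter through these dexamethasone arrays alone, so the filter fixed its direction. DNAJB4, a cytosolic relative of DNAJB1, read 8.05, 7.80 and 8.03 with dexamethasone, against 7.13, 7.22 and 7.13 with ethanol (0.80 ± 0.27, adjusted p = 0.0298). Its call ended without any 1 of 5 arrays, at most at an adjusted p of 0.0814. Its 6 h arrays lay between 6.29 and 7.45, with dexamethasone and ethanol overlapping.

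DNAJB14, anchored in the membrane of the endoplasmic reticulum (ER), read 10.42, 10.48 and 10.54 with dexamethasone and 10.04, 10.04 and 9.91 with ethanol at 24 h (0.48 ± 0.08, adjusted p = 0.000792). On the poly-A spike scale DNAJB14, DNAJB4 and DNAJB5 did not pass (0.14, 0.46 and 0.37, adjusted p = 0.426, 0.111 and 0.123). DNAJB12, a relative of DNAJB14, and the ER-lumen protein DNAJB11 did not pass either (0.00 and -0.15), nor did DNAJB6, which suppresses aggregation (-0.10). DNAJB9, which acts on the ER chaperone BiP, had a difference of 0.36 ± 0.25 (adjusted p = 0.276), and 0.0044 with experiment number as a block.

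DNAJC genes share the J domain and little else, and of 23 tested 5 rose and 6 fell at 24 h (21.7% and 26.1%, close to the 23.9% and 28.1% of all genes tested). DNAJC15, an inner-membrane protein of mitochondria known to restrain respiration, gave 11.74, 11.37 and 12.09 on the dexamethasone arrays of 24 h, against 10.16, 10.10 and 10.18 on the ethanol arrays. All 3 dexamethasone arrays lay more than 1 log2 unit above every ethanol array, a level 3.01 times that with ethanol (1.59 ± 0.15, adjusted p = 8.37e-06). At 6 h the difference was 0.11 (adjusted p = 0.739), and the change between times was 1.48 (adjusted p = 0.000672). DNAJC18 gave 5.90, 5.07 and 5.58 with dexamethasone and 3.85, 3.85 and 3.83 with ethanol, a rise of at least 1.52 measured against 4. It passed the filter through these dexamethasone arrays alone, so the filter fixed its direction and its place among the 5 that rose.

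DNAJC4 gave 8.69, 8.51 and 8.64 with dexamethasone at 24 h, against 7.28, 7.40 and 7.39 with ethanol, 2.39 times the ethanol level (1.26 ± 0.12, adjusted p = 8.96e-06). Dexamethasone was already above ethanol in each experiment at 6 h, although the groups overlapped (7.56, 7.79 and 7.50 with dexamethasone, against 7.16, 7.51 and 7.11 with ethanol), where it passed with experiment number as a block (adjusted p = 0.0276) but not without it (0.36, adjusted p = 0.111). DNAJC1, an ER-membrane protein that brings BiP to the ribosome, gave 11.05, 10.86 and 10.87 with dexamethasone, against 10.06, 10.16 and 9.98 with ethanol (0.86 ± 0.15, adjusted p = 0.000662). Its difference at 6 h was -0.13, and the change between times was 0.98 (adjusted p = 0.00671). DNAJC27, which carries a GTPase domain, rose by 0.41 ± 0.10 (adjusted p = 0.00642), or 0.07 on the poly-A spike scale (adjusted p = 0.751).

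**Figure D4:**
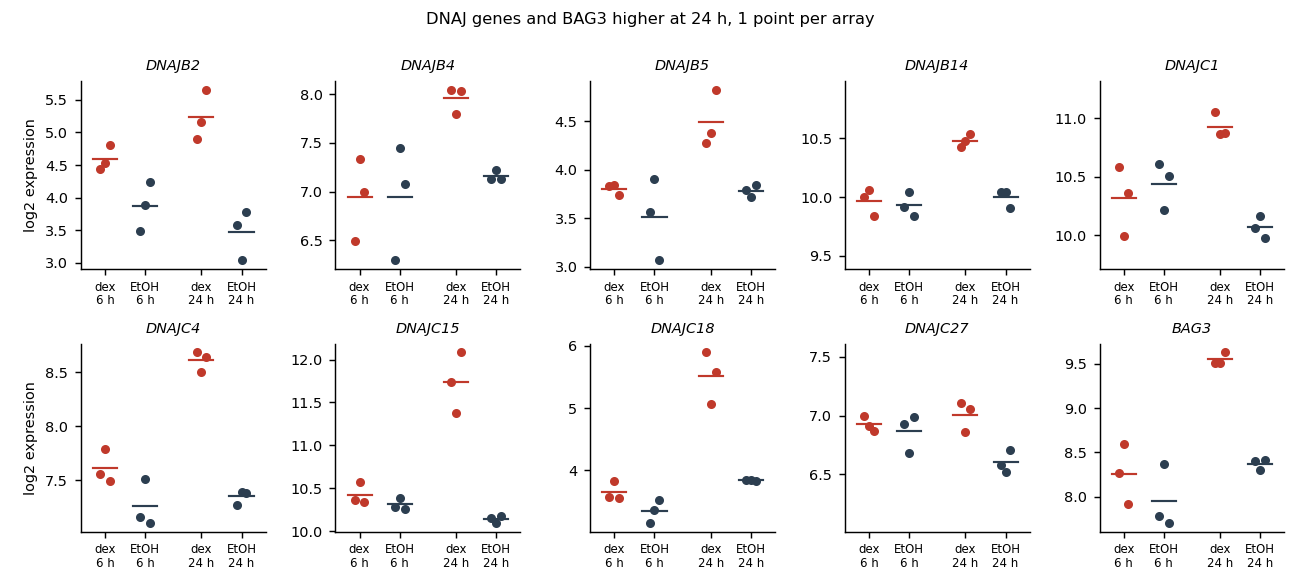
Log2 expression on each array of the 9 DNAJ genes and BAG3 that were called higher at 24 h, with dexamethasone (dex, red) left of ethanol (EtOH, blue) at 6 h and 24 h; points are arrays, lines are group means (n = 3), and each panel has its own axis range. All 3 dexamethasone arrays of 24 h lie above the 3 ethanol arrays in each panel, which the filter fixed for DNAJB5 and DNAJC18. On the poly-A spike scale DNAJB4, DNAJB5, DNAJB14 and DNAJC27 were not called.

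Among the DNAJC genes that fell, DNAJC2 (MPP11), the J protein of the ribosome-associated complex, changed most. It gave 9.56, 9.41 and 9.25 on the dexamethasone arrays of 24 h, against 10.60, 10.63 and 10.45 on the ethanol arrays, 0.449 times the ethanol level (-1.16 ± 0.09, adjusted p = 2.7e-06). Values at 6 h were 10.59, 10.43 and 10.44 with dexamethasone and 10.96, 10.94 and 10.88 with ethanol (-0.44 ± 0.09, adjusted p = 0.0181). Groups did not overlap at either time, though the 6 h call ended without any 1 of 4 arrays, at most at an adjusted p of 0.0623.

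DNAJC6, auxilin, which strips clathrin coats from vesicles, gave 7.27, 7.14 and 6.96 with dexamethasone at 6 h, against 7.52, 7.63 and 7.72 with ethanol (-0.50 ± 0.11, adjusted p = 0.0243). By 24 h it gave 6.60, 6.96 and 6.72 with dexamethasone and 7.49, 7.61 and 7.52 with ethanol (-0.78 ± 0.11, adjusted p = 0.000164). The groups were apart at both times, and the 6 h call ended without any 1 of 4 arrays, at most at an adjusted p of 0.0848. DNAJC11, a mitochondrial membrane protein, gave 7.02, 7.80 and 7.46 with dexamethasone at 24 h and 8.25, 8.14 and 8.29 with ethanol (-0.80 ± 0.16, adjusted p = 0.00159). Experiment 1 had the lowest dexamethasone value for DNAJC11, and all 3 lay below every ethanol array.

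The smaller falls were in DNAJC21, a factor of the large ribosomal subunit (-0.40, adjusted p = 0.00412), DNAJC10, an ER disulfide reductase (-0.37, adjusted p = 0.0138), and DNAJC7, a co-chaperone that also binds HSP90 (-0.27, adjusted p = 0.0171). The 12 DNAJC genes that did not pass had differences between -0.20 and 0.14. They include DNAJC3, an inhibitor of the kinase PERK (0.08), DNAJC5, the cysteine string protein of secretory vesicles (-0.01), and DNAJC8, a protein linked to splicing (0.00). DNAJC12 varied most within groups, between 5.36 and 7.97 over the 12 arrays, and experiment 3 had the lowest value in each group. DNAJC9, a histone chaperone, passed with experiment number as a block (adjusted p = 0.0293) but not without it (-0.19, adjusted p = 0.0938).

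BAG proteins bind the ATPase domain of HSP70 and differ in where they send its clients. BAG2, which inhibits the ubiquitin ligase CHIP, fell at both times. It gave 9.85, 10.23 and 10.08 on the dexamethasone arrays of 24 h, against 11.13, 11.17 and 11.33 on the ethanol arrays, 0.449 times the ethanol level (-1.15 ± 0.10, adjusted p = 6.63e-06). At 6 h it gave 11.00, 10.83 and 10.86 with dexamethasone and 11.25, 11.28 and 11.39 with ethanol (-0.41 ± 0.10, adjusted p = 0.0443). The groups were apart at both times, but the 6 h call was near the threshold and ended without any 1 of 9 arrays, at most at an adjusted p of 0.137. Further BAG2 probe sets were not called at 6 h (-0.19 and -0.38, adjusted p = 0.594 and 0.327) but were lower at 24 h (-0.88 and -1.03, adjusted p = 0.00131 and 0.00148).

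BAG3, which routes clients to autophagy, rose. Its arrays gave 9.51, 9.50 and 9.63 with dexamethasone at 24 h, against 8.40, 8.30 and 8.41 with ethanol, 2.26 times the ethanol level (1.18 ± 0.19, adjusted p = 0.000384). All 3 dexamethasone arrays were more than 1 log2 unit above the ethanol arrays. The groups overlapped at 6 h, with 8.27, 8.59 and 7.92 with dexamethasone and 7.79, 8.37 and 7.71 with ethanol, and the difference passed with experiment number as a block (adjusted p = 0.0408) but not without it (0.31 ± 0.19, adjusted p = 0.396).

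BAG6, which guards newly made membrane proteins, was higher at 6 h alone. It gave 10.70, 10.83 and 10.75 with dexamethasone, against 10.42, 10.39 and 10.35 with ethanol (0.38 ± 0.08, adjusted p = 0.0177), but on the poly-A spike scale the sign turned (-0.09, adjusted p = 0.568). Its 2 other tested probe sets also rose at 6 h (0.37 and 0.31, adjusted p = 0.0132 and 0.0298), and the call ended without any 1 of 3 arrays, at most at an adjusted p of 0.0637. At 24 h BAG6 gave 10.17, 10.37 and 10.35 with dexamethasone and 10.36, 10.28 and 10.44 with ethanol, which overlapped (-0.06, adjusted p = 0.549), and the change between times passed (-0.44, adjusted p = 0.0158). BAG4, a silencer of death receptors, gave 9.62, 9.70 and 9.53 with dexamethasone at 24 h, against 10.17, 10.32 and 10.17 with ethanol (-0.60 ± 0.08, adjusted p = 8.26e-05), and BAG5 did not pass (-0.18, adjusted p = 0.0583). The probe sets of both genes disagreed: 2 further ones of BAG4 were not called (-0.20 and -0.29, adjusted p = 0.451 and 0.0812), and 2 further ones of BAG5 were called lower (-0.51 and -1.01, adjusted p = 0.00104 and 0.000124).

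HSF1, the transcription factor of the heat shock response, gave 8.39, 8.83 and 8.97 on the dexamethasone arrays of 6 h, against 8.11, 8.32 and 8.21 on the ethanol arrays. All 3 dexamethasone arrays lay above the ethanol arrays, by little in experiment 0. The difference of 0.51 ± 0.14 missed the threshold (adjusted p = 0.0546) and was 0.05 on the poly-A spike scale. It passed with experiment number as a block (adjusted p = 0.0319). It also passed without the dexamethasone array of experiment 0, the lowest of the 3 (adjusted p = 0.0062). A further tested HSF1 probe set was not called at 6 h (0.59, adjusted p = 0.264) or at 24 h (-0.59, adjusted p = 0.103). At 24 h HSF1 gave 8.07, 8.35 and 8.15 with dexamethasone and 8.40, 8.30 and 8.44 with ethanol (-0.19 ± 0.14, adjusted p = 0.283), and the change between the times passed (-0.70, adjusted p = 0.0249). Of other stress regulators, HSF4 and the HSF1-binding protein HSBP1 did not pass at either time, and NFE2L2, the oxidative stress factor, rose by 0.49 at 6 h and 0.37 at 24 h (adjusted p = 0.00323 and 0.00181), or 0.02 and 0.04 on the poly-A spike scale, where neither passed (adjusted p = 0.896 and 0.864).

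Heat shock elements were looked up in the promoters because they are the known site of HSF1. RefSeq promoter windows of GRCh38.p14, 250 bases before to 50 after a start site, were held for 62 of the genes, in 79 windows. BAG4, CCT6A, DNAJC1, DNAJC22, DNAJC24, DNAJC5B, HSF1, HSPA14 and PFDN2 had no window here. The stretches below show the genes with 3 adjoining units, and then examples with 2 units from the genes that fell (DNAJB1, CCT2, HSPA4L) and the genes that rose (DNAJB4). Capitals mark the motif, and each stretch is written 5′ to 3′ on the strand of its gene.
DNAJA1 chr9:33025251-33025302 plus strand: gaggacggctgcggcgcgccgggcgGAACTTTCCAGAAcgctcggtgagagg
DNAJB6 chr7:157336848-157336910 plus strand: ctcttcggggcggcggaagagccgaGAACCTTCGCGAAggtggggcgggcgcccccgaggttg
HSPA6 chr1:161524441-161524503 plus strand: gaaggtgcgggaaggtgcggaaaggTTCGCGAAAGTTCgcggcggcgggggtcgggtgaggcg
DNAJB1 chr19:14518412-14518499 minus strand: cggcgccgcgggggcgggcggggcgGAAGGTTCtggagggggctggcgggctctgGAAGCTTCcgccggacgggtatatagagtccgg
CCT2 chr12:69585775-69585832 plus strand: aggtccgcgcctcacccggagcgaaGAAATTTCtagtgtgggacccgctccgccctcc
HSPA4L chr4:127782127-127782184 plus strand: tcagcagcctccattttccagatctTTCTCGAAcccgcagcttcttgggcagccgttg
DNAJB4 chr1:78004816-78004873 plus strand: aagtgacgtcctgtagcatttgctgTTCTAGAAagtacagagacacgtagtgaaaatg

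The 2-unit motif was GAA and TTC, in either order, with any 2 bases between them. The 3-unit motif, which contains it, adds a further unit of the alternating series after any 2 bases, and both were searched on both strands. The 3-unit motif was in 3 of 79 windows (3.80%), against 0.490% of 35116 RefSeq windows of the same length. Its holders differed in response: DNAJA1 fell at 24 h, DNAJB6 did not pass and HSPA6 was below 4 throughout. The 2-unit motif was in 15 of 79 windows (19.0%), against 13.5% of all windows and 10.5% of the windows of tested genes. It was in 8 of 29 windows of genes lower at 24 h (BAG2, CCT2, CCT4, DNAJA1, DNAJB1 in 2 windows, DNAJC6 and HSPA4L), in 2 of 13 windows of genes higher at 24 h (DNAJB4 and DNAJC15), in 2 of 23 windows of genes that did not pass (DNAJB6 and HSPB1), and in 3 of 14 windows of untested genes (DNAJA4, DNAJB7 and HSPA6).

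Other motifs were counted in the same way. The E-box CACGTG was in 4 of 79 windows (5.06%, against 7.26% of all windows and 9.90% of the windows of tested genes), those of DNAJB9, DNAJC8, DNAJC12 and DNAJC16, which is 4 of 23 windows of genes that did not pass and 0 of 42 of genes called at 24 h. CCAAT was in 39.2%, against 34.6% and 35.9%, and the palindromic glucocorticoid response element was in 0 of 79, against 0.390% and 0.235%. A match of letters is not a site in use, and 0 matches say only that these letters were not in these windows.

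Further chaperones, of mitochondria and the ER, were taken from a second written list. Of 15 tested genes of mitochondrial and ER chaperones, 0 were higher and 11 lower at 24 h (0 and 12 on the poly-A spike scale), against 23.9% and 28.1% of all genes tested (9.65% and 47%), with a median of -0.43. GRPEL1, the mitochondrial exchange factor, fell by 1.45 (adjusted p = 7.53e-08), HSPE1, the mitochondrial co-chaperonin, by 1.37 (adjusted p = 1.84e-06), and HSPA9, the mitochondrial HSP70, by 1.02 (adjusted p = 7.02e-06). CALR, an ER lectin, was higher at 6 h (0.37, adjusted p = 0.0489), with the sign turned on the poly-A spike scale (-0.10, adjusted p = 0.55), and lower at 24 h (-0.70, adjusted p = 0.000148). Of 3 tested partners of HSP70 on the list, HSPBP1, an exchange factor, fell by 1.21 (adjusted p = 1.11e-05), while ST13 and BAG1 had differences of -0.18 and 0.00 and did not pass.

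HSP90 and its co-chaperones, which share clients with HSP70, had 3 of 17 tested genes higher and 12 lower at 24 h (2 and 13 on the poly-A spike scale), against the same shares of all genes, with a median of -0.41. TRAP1, the mitochondrial HSP90, fell by 1.90 (adjusted p = 3.1e-07), STIP1, which links HSP70 to HSP90, by 0.75 (adjusted p = 0.000154), and HSP90AB1 by 0.88 (adjusted p = 4.13e-05). The immunophilins of the steroid receptor moved apart, with FKBP5 higher by 3.13 and FKBP4 lower by 1.77.

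Between the times the response changed for 24 of the 59 genes, against 27.1% of all genes tested. Each change takes in the 6 h difference, where the array date and the treatment cannot be told apart. The 24 h difference was higher than the 6 h difference for 7 genes (11.9%, against 12.3% of all genes tested), or for 6 without DNAJC18, whose other groups were below 4, and lower for 17 (28.8%, against 14.8%), with a median change of -0.20, against -0.02 over all genes. On the poly-A spike scale 6 were higher (9.97% of all genes tested), DNAJB2, DNAJC15, DNAJC18, DNAJC1, DNAJC4 and BAG3, and 3 were lower (5.58%), CCT5, CCT7 and DNAJA3. With experiment number as a block the change was higher for 9 genes and lower for 20 (18% and 20.4% of all genes tested), which added DNAJB2 (adjusted p = 0.0122, against 0.0537 without the block), DNAJB4 (0.0059, against 0.16), DNAJB1 (0.0203, against 0.167), DNAJA2 and DNAJC10. The count of 7 became 4 without the 24 h dexamethasone array of experiment 3. On ethanol arrays alone, 24 h against 6 h, the 59 genes had a median difference of -0.03 and a range between -0.41 and 0.70, and 1 gene, DNAJC12, exceeded 0.5. These ethanol arrays carry different dates in their file labels.

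Probe sets that were not used to represent a gene gave a check within the same arrays. Of 41 further tested probe sets of the genes called at 24 h, from 27 genes, 40 had the direction of the chosen one, 31 were called in that direction and 0 in the opposite one. The 1 with the other sign belonged to DNAJC7 (0.13). Of 24 further tested probe sets of genes that did not pass, 3 were called, all lower, 2 of BAG5 and 1 of DNAJC9 (-0.58, adjusted p = 0.0019).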

How the data were processed

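Values were used as deposited, as log2 expression per probe set; the submitters' processing notes name GCRMA and R 2.6. Which arrays were normalized together is not given in the sources used here. Control probe sets were left out, and probe sets with a log2 value of at least 4 on at least 3 of 12 arrays were tested (23265 of 54675). limma 3.58.1 in R 4.3.3 fitted the means of the 4 groups over all 12 arrays (8 residual degrees of freedom), and p-values were adjusted by the Benjamini-Hochberg method over all tested probe sets, with a threshold of 0.05. The third contrast was the 24 h difference minus the 6 h difference. Counts use 1 probe set per gene, that with the highest mean among probe sets with a single symbol. Gene symbols are those of the platform annotation. A value below 4 on all 3 arrays of a group was treated as background and differences given as bounds against 4. The fit was tested on simulated data. The number of arrays limits the precision.

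Members and related lists were chosen with earlier results of these data known, so their counts are descriptions. Per-array values were given for members called at 6 h or in the change between times, the 8 largest rises and falls at 24 h, and HSPH1, DNAJB1, HSF1 and BAG3; CCT2, CCT3, CCT4 and CCT6A are given by their differences. Same-numbered dexamethasone and ethanol arrays came from the same experiment, per the labels, and deviated together (correlations 0.417, 0.627 and 0.609 at 6 h, 0.286, 0.238 and 0.424 at 24 h, no other pairing above 0.0500). Alternatives were this number as a block nested in time, the arrays of 1 time alone, no filter, a filter at 6, median centring, scaling to the poly-A spikes, the mean over a gene's probe sets, and leaving out each array. Promoter letters came from RefSeq (GRCh38.p14).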

Additional observations from a re-analysis of the deposited data

Results flagged for a closer look

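The response to dexamethasone differed between 24 h and 6 h in 24 genes by the limma test of the difference itself (Benjamini-Hochberg adjusted p under 0.05). The 6 h part of each change cannot be told apart from the array date. The log2 difference was lower at 24 h than at 6 h in CCT5 (-0.99), DNAJA3 (-0.81), CCT7 (-0.76), BAG2 (-0.75), DNAJC2 (-0.72), DNAJC11 (-0.71), HSF1 (-0.70), HSPH1 (-0.68), HSPA4L (-0.68), CCT3 (-0.61), CCT4 (-0.51), PFDN4 (-0.51), BAG4 (-0.51), HSPA4 (-0.50), BAG6 (-0.44), CCT6A (-0.43) and CCT2 (-0.35). It was higher at 24 h than at 6 h in DNAJC15 (1.48), DNAJC18 (1.37), DNAJC1 (0.98), DNAJC4 (0.90), BAG3 (0.87), DNAJB14 (0.45) and PFDN5 (0.33). For DNAJC18 the other 3 groups were below a log2 value of 4, and it passed the filter through the 24 h dexamethasone arrays alone, so its value is no measure of size. Control probe sets, which are outside the comparisons of genes, also differed: the poly-A spikes were higher on dexamethasone than on ethanol arrays by 0.47 at 6 h and 0.34 at 24 h.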

How the results depend on the processing

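The 25 lower genes at 24 h became 22 to 26 when 1 array was left out, and no other alternative tried moved that count by over 1.5 times. The 11 higher genes became 6 on the poly-A spike scale and 8 to 11 without 1 array. At 6 h the 1 higher gene became 5 with the replicate block, 0 in the fit of the 6 arrays, 2 with the filter at 6, 2 with median centring, 0 on the spike scale and 0 to 2 without 1 array. The 6 lower genes at 6 h became 11 with the replicate block, 2 in the fit of the 6 arrays, 47 on the spike scale and 2 to 8 without 1 array (2 without the dexamethasone array of experiment 1 or 3 or the ethanol array of experiment 1). Genes whose difference was higher at 24 h than at 6 h numbered 4 to 8 without 1 array, and those lower numbered 3 on the spike scale and 12 to 18 without 1 array, against 17. The spike scale lowers every 6 h difference alike by 0.47, which turned 20 of 22 positive ones negative, BAG6 (-0.0894), DNAJB14 (-0.44) and PFDN5 (-0.45) among them. At 24 h the replicate block added calls for DNAJB9 and DNAJC9 and ended none. Genes near a log2 value of 4 (DNAJB2, DNAJB5, DNAJC18) rest on signal close to background.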
